A study of Rattus norvegicus with 8 samples.

Results

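Phosphoglycerate kinase 1 (Pgk1) and 9 further glycolytic enzyme genes were followed in the injured dorsal spinal cord of rats, 10 of 14506 genes measured with a probe set of 1 symbol. They were Hk1, Pfkm, Pfkp, Aldoa, Aldoc, Tpi1, Eno2, Ldha and Ldhb beside Pgk1, found by symbol on 11 probe sets, with the mean taken for Ldha, which has 2. Pgk1 leads the set because it was lower on HDACI than on vehicle arrays at an unadjusted p under 0.01, and the others are enzymes of the same pathway, so the differences between these groups are given below as a description and not as a test. RNA came from the dorsal ipsilateral lumbar cord of adult male Wistar rats at day 14 after L5 spinal nerve transection. The 4 HDACI animals had received MS-275, which blocks class I histone deacetylases (HDACs), into the intrathecal space from an osmotic pump at 30 nmol/d, and the 4 vehicle animals had the same injury and pump with the solvent, dimethyl sulfoxide in saline. In the pretreatment experiments of the study, pumps were placed days before the injury and delivery continued after it. The start was not stated separately for the array animals. Each animal sample was hybridized to 1 Rat Gene 1.0 ST array, and all groups were nerve-injured, so no uninjured level exists here. The tissue is a mix of neurons, glia, vessels and meninges, in which fewer cells of a type and less RNA per cell cannot be told apart.

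Glycolysis splits glucose into pyruvate in the cytosol and yields ATP without oxygen. Hexokinase traps glucose, phosphofructokinase commits it to the pathway, aldolase and triosephosphate isomerase make 3-carbon sugars, and phosphoglycerate kinase, enolase and pyruvate kinase finish the payoff phase. Lactate dehydrogenase then interconverts pyruvate and lactate. In nervous tissue several steps have isozymes of different cell bias: Eno2 is the neuronal enolase, Aldoc is an aldolase typical of astrocytes, and the Ldha and Ldhb subunits assemble into tetramers that favour lactate and pyruvate production, in that order.

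Values are log2 signals after RMA, a method that corrects background and gives all arrays the same distribution, so 1 unit is a doubling and levels are relative. The 8 arrays were alike, with Pearson correlations between 0.993 and 0.997 across probe sets and medians between 7.95 and 7.98. The 10 genes were bright, with mean signals from 11.09 for Ldha to 13.37 for Aldoc, against a 95th percentile of 6.93 among 1105 olfactory receptor genes, which the cord is not known to use. Markers of the dorsal horn were measured for 11 of 13 listed genes, with list means of 9.63 to 10.06 on HDACI and 9.65 to 9.74 on vehicle arrays.

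Pgk1, which makes ATP from 1,3-bisphosphoglycerate, read 11.55, 11.39, 11.52 and 11.47 in HDACI replicates 1 to 4, against 11.58, 11.69, 11.67 and 11.76 in vehicle replicates 1 to 4. Every HDACI array lay below every vehicle array, but by a narrow margin, since the highest HDACI array (replicate 1) and the lowest vehicle array (replicate 1) stood at 11.55 and 11.58. The means were 11.48 ± 0.069 with HDACI and 11.68 ± 0.075 with vehicle (SD, n = 4 each). The difference was -0.19 (standard error 0.053), or 87.4% of the vehicle level. It ranged from -0.23 without vehicle replicate 1 to -0.16 without HDACI replicate 2 when each array was left out in turn. Of the 10 genes, only Pgk1 was under that limit in limma, the value it was chosen by. At the same limit 0.855% of all genes were lower with HDACI, and 0 of 14506 genes passed adjustment in limma, where 7.75% had an unadjusted p under 0.05.

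**Figure D1:**
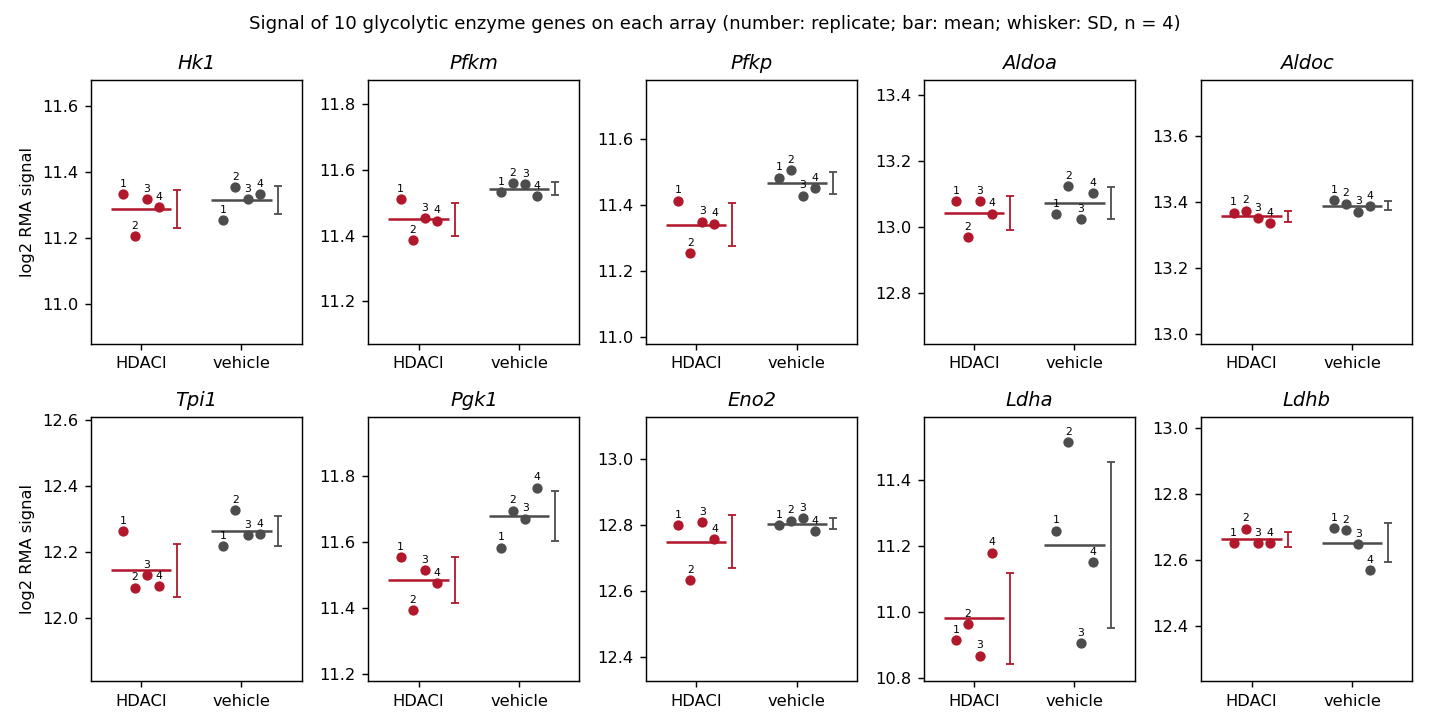
Log2 RMA signal of each of the 10 genes (vertical axes, each spanning 0.8 units) on HDACI and vehicle arrays, with dots numbered by replicate, horizontal bars for group means and whiskers for the SD (n = 4). Pgk1, Pfkm and Pfkp show no overlap between the groups, and HDACI replicate 2 is the lowest HDACI array in 7 of the 10 panels.

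Signal was lower with HDACI for 9 of the 10 genes, and Ldhb was the exception. The median difference was -0.074, against -0.014 over all genes, of which 57.9% lay below 0. The groups did not overlap for 3 of the 10, Pgk1, Pfkm and Pfkp, where 3.6% of all genes were lower and 1.42% higher without overlap. The contrast was known when the genes were chosen, and nothing is read from these counts. All differences were small: apart from Pgk1 and Ldha, the HDACI means ran from 91.6% to 101% of the vehicle level.

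At the first step, hexokinase 1 (Hk1), the main brain hexokinase, had 11.33, 11.21, 11.32 and 11.29 on HDACI arrays and 11.25, 11.35, 11.32 and 11.33 on vehicle arrays. The groups overlapped throughout, and the difference of -0.027 (standard error 0.044) shrank to -0.00032 without HDACI replicate 2. Both phosphofructokinase genes stood apart more clearly. Pfkp, the platelet-type subunit that brain also uses, read 11.41, 11.26, 11.35 and 11.34 with HDACI, against 11.48, 11.51, 11.43 and 11.45 with vehicle. All 4 HDACI arrays were below the lowest vehicle array, with a difference of -0.13 (standard error 0.045). Pfkm, the muscle-type subunit, read 11.51, 11.39, 11.45 and 11.45 with HDACI and 11.53, 11.56, 11.56 and 11.52 with vehicle. The vehicle arrays lay close together (SD 0.020) and the HDACI arrays all lay beneath them, with a difference of -0.093 (standard error 0.040). Within each array the gap between Pfkm and Pfkp was 0.107 ± 0.015 with HDACI and 0.073 ± 0.036 with vehicle (SD, n = 4 each). This gap between mRNA signals thus differed by 0.034 between the groups, and subunit protein was not measured.

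In the middle of the pathway the 2 aldolase genes, whose products split fructose-1,6-bisphosphate, hardly differed. Aldoa had a difference of -0.031 (standard error 0.044) and Aldoc of -0.032 (standard error 0.035), each with overlapping groups. The Aldoa difference was -0.0067 without HDACI replicate 2 and -0.047 without vehicle replicate 3. Aldoc was also the steadiest of the 10 genes, with 13.34 to 13.37 on HDACI and 13.37 to 13.40 on vehicle arrays. The within-array gap of Aldoa to Aldoc was -0.315 ± 0.061 with HDACI and -0.316 ± 0.046 with vehicle (SD, n = 4 each). Triosephosphate isomerase (Tpi1), which interconverts the triose phosphates, read 12.26, 12.09, 12.13 and 12.10 with HDACI, against 12.22, 12.33, 12.25 and 12.25 with vehicle. HDACI replicate 1 was above all but 1 vehicle array, whereas the other HDACI arrays were below every vehicle array. Its difference was -0.12 (standard error 0.050), and -0.16 without HDACI replicate 1. Eno2 read 12.80, 12.63, 12.81 and 12.76 with HDACI and 12.80, 12.81, 12.82 and 12.78 with vehicle. HDACI replicate 2 was the lowest array and replicate 4 also lay below the vehicle arrays, whereas the other HDACI arrays overlapped them. The difference of -0.054 (standard error 0.047) became -0.016 without HDACI replicate 2.

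**Figure D2:**
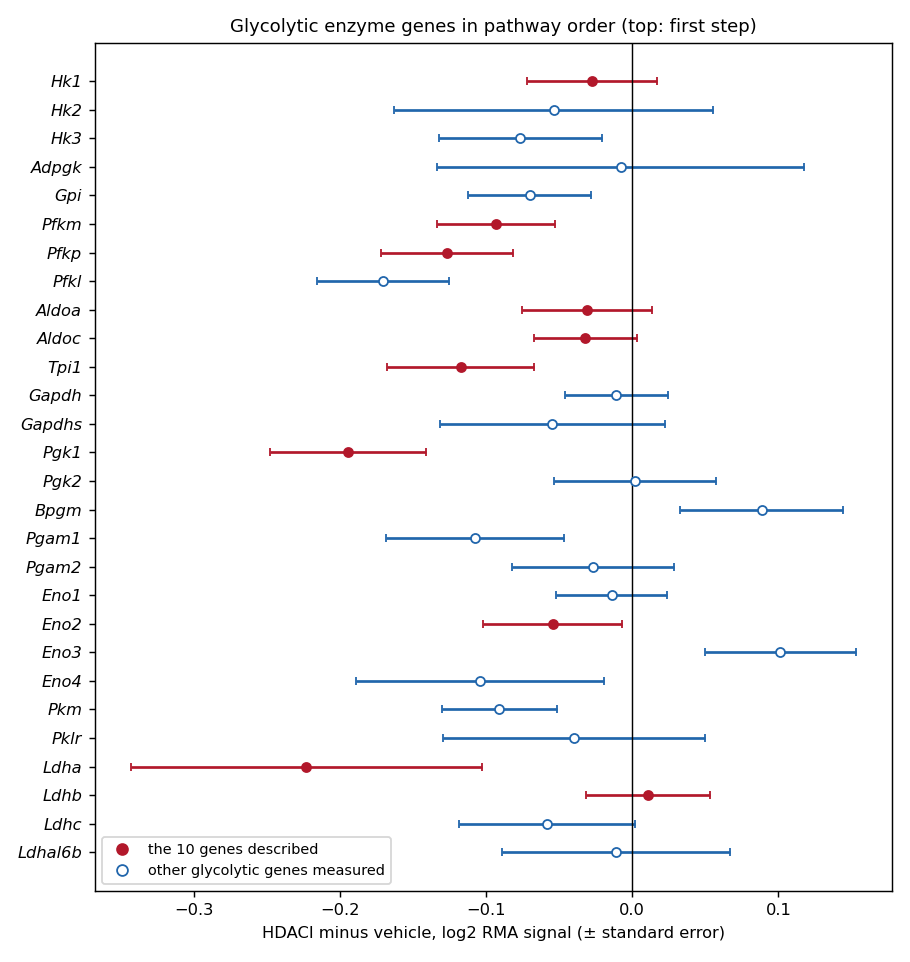
HDACI minus vehicle difference in log2 RMA signal (horizontal axis, with standard error) for the glycolytic genes measured, from hexokinases at the top to lactate dehydrogenases at the bottom. Filled symbols are the 10 genes described, open symbols the 18 other glycolytic genes, of which Pfkl (-0.17) lies lowest and Eno3 (0.10) highest.

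Ldha had a difference of -0.22 (standard error 0.12) by its mean, which was -0.12 without vehicle replicate 2, and its 2 probe sets disagreed. Probe set 10707137 read 10.72, 10.80, 10.73 and 10.75 with HDACI and 10.70, 10.96, 10.68 and 10.49 with vehicle, a difference of 0.042 (standard error 0.087). Probe set 10908861 read 11.11, 11.13, 11.001 and 11.61 with HDACI and 11.80, 12.07, 11.13 and 11.81 with vehicle, a difference of -0.49 (standard error 0.20). On the second probe set HDACI replicate 4 sat near the vehicle arrays and vehicle replicate 3 near the HDACI arrays, so the groups overlapped although their means lay far apart. Both are annotated to Ldha, and which of them follows the gene, or a near-identical copy of it, was not tested. With the first probe set alone, an alternative chosen after the values were seen, 8 of the 10 genes were lower and the median difference was -0.043. Ldhb read 12.65, 12.70, 12.65 and 12.65 with HDACI and 12.70, 12.69, 12.65 and 12.57 with vehicle. The groups overlapped, the difference was 0.011 (standard error 0.042), and it was -0.017 without vehicle replicate 4. The within-array gap of Ldha to Ldhb was -1.68 ± 0.14 with HDACI and -1.45 ± 0.23 with vehicle (SD, n = 4 each). With the first probe set alone that gap was -1.91 ± 0.016 with HDACI and -1.95 ± 0.15 with vehicle.

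**Figure D3:**
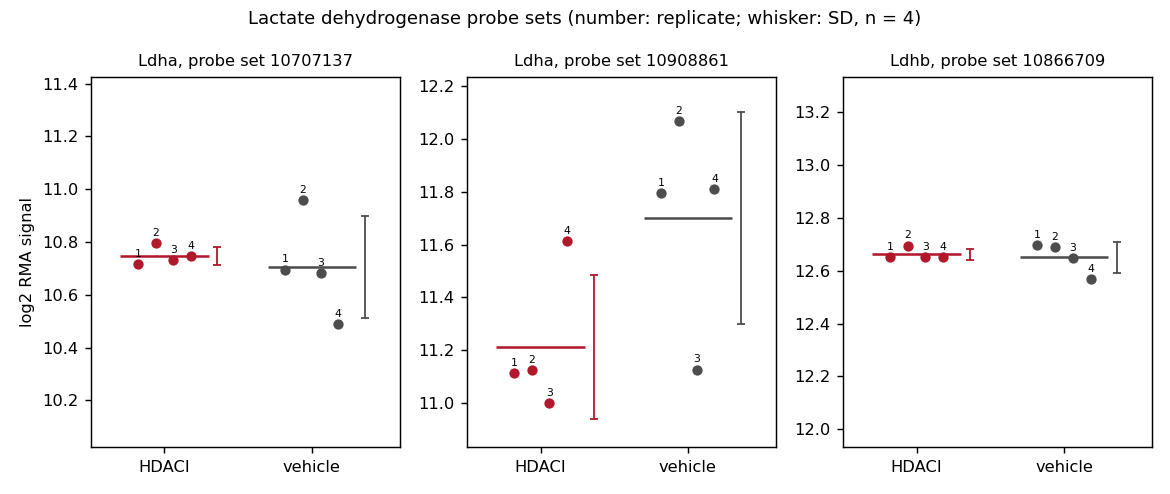
Log2 RMA signal on each array for both Ldha probe sets and for Ldhb (vertical axes of equal span), with dots numbered by replicate, bars for means and whiskers for the SD (n = 4). Probe set 10908861 spreads from 11.001 to 12.07, while 10707137 and Ldhb show overlapping groups with differences of 0.042 and 0.011.

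Hypoxia-inducible factors act on many glycolytic promoters through a short core sequence, ACGTG or GCGTG on either strand. RefSeq promoter windows of the GRCr8 assembly, 250 bases before to 50 after a start, were matched for 9 of the 10 genes (not Pgk1), 12 windows in all. The core was present in 8 of the 12, and in 41.6% of 33469 windows of that length. The GC box GGGCGG was present in 8 of the 12, against 33.1% of all windows, and CCAAT in 6 of the 12, against 37.5%, again on both strands. Hk1 and Aldoa each gave several of the 12 windows. Bases G and C made up 50.3% (Pfkm) to 70.7% (Eno2) of a window. The windows compared were not matched for this, so no enrichment is read from these shares. The windows below belong to Pfkp, the gene after Pgk1 and Ldha with the largest difference, and to the isozyme pair Ldha and Ldhb, which differed in sign by gene means. Capitals mark the core on either strand, and the CACGTG of Ldha, which reads as the core on both, is counted once for each.
Pfkp, chr17:68639563-68639862, + strand: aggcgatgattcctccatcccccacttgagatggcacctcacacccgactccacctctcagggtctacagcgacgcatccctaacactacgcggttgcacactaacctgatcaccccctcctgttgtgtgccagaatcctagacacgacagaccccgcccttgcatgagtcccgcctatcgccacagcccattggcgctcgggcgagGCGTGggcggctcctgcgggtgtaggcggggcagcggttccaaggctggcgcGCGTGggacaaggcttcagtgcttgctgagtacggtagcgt
Ldha, chr1:106507842-106508141, + strand: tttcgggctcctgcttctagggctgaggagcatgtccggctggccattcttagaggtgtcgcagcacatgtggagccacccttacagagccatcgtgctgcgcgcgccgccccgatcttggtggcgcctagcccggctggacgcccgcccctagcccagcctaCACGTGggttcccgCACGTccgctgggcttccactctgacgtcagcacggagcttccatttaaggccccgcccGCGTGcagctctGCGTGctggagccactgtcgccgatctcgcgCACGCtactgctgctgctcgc
Ldhb, chr4:177177359-177177658, - strand: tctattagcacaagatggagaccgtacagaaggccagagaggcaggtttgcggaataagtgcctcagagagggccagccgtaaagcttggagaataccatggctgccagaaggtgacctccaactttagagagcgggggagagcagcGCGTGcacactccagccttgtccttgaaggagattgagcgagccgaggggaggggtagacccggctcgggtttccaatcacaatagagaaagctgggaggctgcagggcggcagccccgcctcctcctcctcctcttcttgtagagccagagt
The core occurs at 6 positions in the Ldha window, 2 in that of Pfkp and 1 in that of Ldhb. Among windows not printed, it occurs at 3 positions for Aldoc (difference -0.032) and at 0 for Tpi1 (-0.12). Whether the number of positions goes with the differences was not tested. A match is a run of letters only, and binding was not measured.

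Arrays of 1 group also differed among themselves in these genes. HDACI replicate 2 was the lowest of its group for 7 of the 10, but the highest for Aldoc and Ldhb, and vehicle replicate 2 was the highest of its group for 6. Once each group was centred on its own mean, the correlation between pairs of the 10 genes over 8 arrays had a median of 0.36, from -0.77 for Pgk1 with Ldhb to 0.90 for Pgk1 with Hk1, and 30 of 45 pairs were above 0. These arrays share their RNA across genes, so the values are descriptive. No such value was computed for pairs of other genes, and Hk1 ranked only 86 among all genes in likeness to Pgk1. Among all genes the 5 most like Pgk1 by this measure were the keratin Krt18 (0.98), the mitochondrial chaperonin Hspd1 (0.98), Traf3ip1 (0.98), Klhl23 (0.98) and the neuroendocrine protein Scg5 (0.97), each over 8 arrays.

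Cell type markers were set beside these values by list. In most lists the array means of the groups overlapped. Of 15 neuronal markers, 14 had a difference below 0, with a median of -0.068, and list means of 11.58 to 11.79 on HDACI and 11.75 to 11.85 on vehicle arrays. The lowest was HDACI replicate 2, which was also the lowest array over the 10 glycolytic genes (11.996, with HDACI replicates 1, 3 and 4 at 12.05 to 12.09 and vehicle arrays at 12.10 to 12.20). Among neuronal markers Tubb3 stood at -0.26, Nefm at -0.25 and Nefh at -0.23, whereas Syt1 (-0.0019) and Map2 (-0.016) hardly differed. All 5 measured markers of the ventral motor neuron list, which should be scarce in dorsal tissue, were below 0, with a median of -0.93 and means of 7.36 to 8.53 on HDACI and 7.75 to 9.97 on vehicle arrays. The 11 dorsal horn markers were all above 0, with a median of 0.18. Leptomeningeal fibroblast markers read 8.49 to 9.72 with HDACI and 8.53 to 8.99 with vehicle, the highest in HDACI replicate 2, and 9 of 12 were above 0 (median 0.22). Of 9 astrocyte markers, 8 were above 0 (median 0.051), with means of 11.55 to 11.64 on HDACI and 11.48 to 11.60 on vehicle arrays. Of 10 microglial markers, 9 were above 0 (median 0.16), with means of 10.13 to 10.43 on HDACI and 9.93 to 10.37 on vehicle arrays. For the lumbar Hox genes, which mark the level of the cord, the list means of the groups did not overlap, but each gene taken alone did. All 4 measured were below 0 (median -0.19). List means were 8.79 to 9.27 on HDACI and 9.29 to 9.38 on vehicle arrays, again the lowest in HDACI replicate 2. Red blood cell markers were above 0 for 6 of 6 genes (median 0.17), with means of 6.82 to 8.05 on HDACI and 6.74 to 7.59 on vehicle arrays, the highest in HDACI replicate 2. Schwann cell and nerve root markers were below 0 for 5 of 5 genes (median -0.12). Their means spread widely within both groups, 7.91 to 9.92 on HDACI and 7.86 to 9.66 on vehicle arrays. Oligodendrocyte markers were below 0 for 6 of 10 genes (median -0.0013) and skeletal muscle markers for 5 of 10 (median -0.013). The part of all these markers in the values of the glycolytic genes was not tested.

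**Figure D4:**
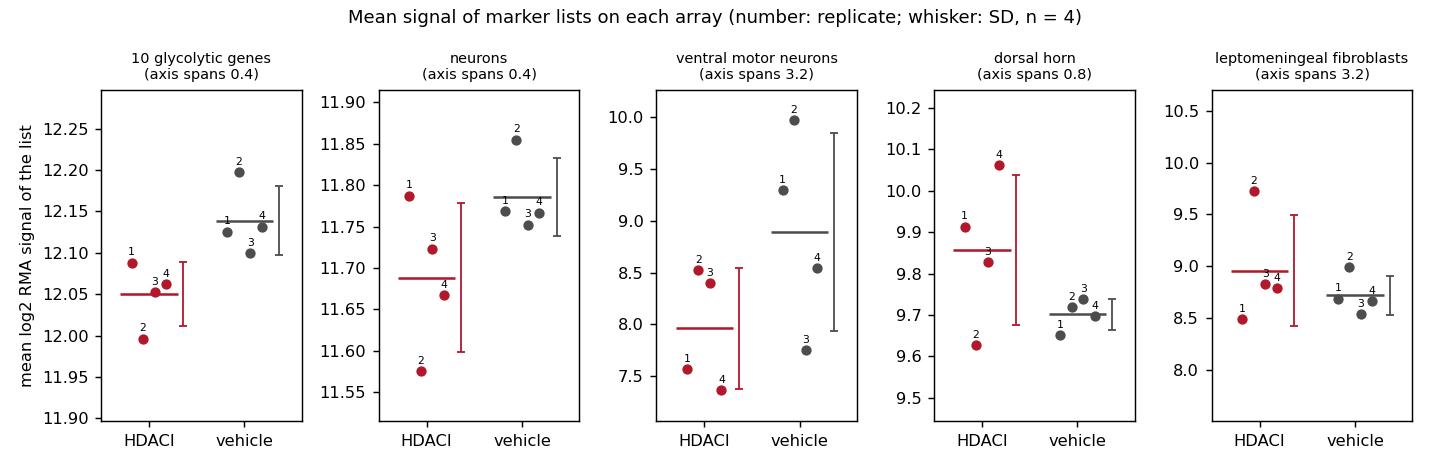
Mean log2 RMA signal per array of the 10 glycolytic genes and of 4 marker lists (vertical axes, with the span given above each panel), with dots numbered by replicate, bars for means and whiskers for the SD (n = 4). HDACI replicate 2 is the lowest array for the glycolytic genes (11.996) and for neurons (11.58), and the highest for leptomeningeal fibroblasts (9.72).

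The question of how far the rest of glucose metabolism moved was put to 129 further genes in 10 lists, tested with limma over all genes. None passed adjustment (smallest adjusted p = 0.61 from limma). At an unadjusted p under 0.01, 2 were lower and 1 was higher, 2.33% of the 129, against 1.46% of all genes. The genes called include Pfkl, which was known from earlier results of these arrays, as other results were when the lists were written. Nothing is therefore read from these shares. At an unadjusted p under 0.05, 13 were lower and 3 higher, where 4.96% of all genes were lower and 2.79% higher. The count of 3 went to 0 without HDACI replicate 2, without vehicle replicate 3 or without vehicle replicate 4, and to 1 without HDACI replicate 4.

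Among 18 other glycolytic enzymes, 15 were below 0, with a median of -0.047. Of the 1105 olfactory receptor genes, 774 were below 0 as well, with a median of -0.034. The counts below 0 and the medians of the lists are therefore descriptive only. Hk3, Gapdhs and Ldhc, among the 15, had group means under 6.93, the 95th percentile of those receptor genes. Pfkl, the liver-type phosphofructokinase subunit, was known from earlier results of these arrays. It read 9.62, 9.49, 9.57 and 9.54 with HDACI and 9.67, 9.69, 9.75 and 9.79 with vehicle, without overlap, a difference of -0.17 (standard error 0.045, unadjusted p = 0.00423 from limma). Like Pfkm and Pfkp, whose values were already known, it was among the 3.6% of all genes that were lower without overlap. Pyruvate kinase (Pkm), the last ATP-yielding step, read 12.59, 12.50, 12.54 and 12.48 with HDACI, against 12.61, 12.62, 12.62 and 12.61 with vehicle. Its groups did not overlap either, and the difference was -0.091 (standard error 0.039, unadjusted p = 0.0456 from limma). The phosphoglycerate mutase Pgam1 had -0.11 (standard error 0.061) and glucose-6-phosphate isomerase (Gpi) -0.070 (standard error 0.042), with unadjusted p above 0.1. The Pgam1 value is the mean of 2 probe sets at very different signals, 7.74 (difference -0.13) and 13.46 (difference -0.087). The widely used reference gene Gapdh, measured on 16 probe sets, averaged 13.80 ± 0.019 with HDACI and 13.81 ± 0.013 with vehicle (SD, n = 4 each). Its difference of -0.011 (standard error 0.035) was the mean of probe sets running from -0.021 to 0.0054. Signal of near-identical copies of the gene cannot be told apart from it on these probe sets. Eno1 was as level, at -0.014 (standard error 0.038), and the muscle enolase Eno3 had 0.10 (standard error 0.052).

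The pyruvate dehydrogenase complex, which passes pyruvate into the mitochondrial cycle, had 3 subunit genes with an unadjusted p under 0.05, all lower, where 4.96% of all genes were. Pdhb read 10.13, 10.04, 10.13 and 10.01 with HDACI and 10.21, 10.21, 10.24 and 10.38 with vehicle, a difference of -0.18 (standard error 0.054, unadjusted p = 0.00696 from limma). Dlat had -0.14 (standard error 0.050, unadjusted p = 0.0166 from limma) and Pdha1 -0.12 (standard error 0.043, unadjusted p = 0.0230 from limma). None of the 3 overlapped between groups, where 3.6% of all genes were lower without overlap. Of the 11 genes of the complex and its kinases and phosphatases 9 were below 0 (median -0.063). Of 15 citric acid cycle genes 14 were below 0 (median -0.048), with 2 at an unadjusted p under 0.05: the isocitrate dehydrogenase subunit Idh3b (-0.13, standard error 0.046) and the succinyl-CoA ligase subunit Sucla2 (-0.11, standard error 0.042). Idh3a followed at -0.11 (standard error 0.049). Of 10 genes of branches and shuttles 7 were below 0 (median -0.065), where the aspartate aminotransferase Got1 had -0.14 and the carrier Slc25a11 -0.089, but the glycerophosphate dehydrogenase Gpd2 0.12 (standard errors 0.047, 0.040 and 0.041).

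Regulators and transporters went both ways. Epas1, which encodes hypoxia-inducible factor 2 alpha and is typical of endothelium, read 11.43, 11.59, 11.56 and 11.44 with HDACI and 11.33, 11.37, 11.31 and 11.21 with vehicle. All HDACI arrays were above all vehicle arrays, a difference of 0.20 (standard error 0.054, unadjusted p = 0.00490 from limma). Markers of endothelium and mural cells were above 0 for 10 of 11 genes (median 0.10). List means were 9.36 to 9.73 on HDACI and 9.31 to 9.38 on vehicle arrays. The mural markers Des (0.67) and Tagln (0.33) had the largest differences. Endothelial markers ran from Cldn5 (-0.0024), Flt1 (0.020) and Pecam1 (0.054) to Kdr (0.085), Cdh5 (0.13) and Tek (0.20). The part of the list in the Epas1 difference was not tested. Tigar, which lowers fructose-2,6-bisphosphate, had -0.18 (standard error 0.075) and the oxygen sensor Egln1 -0.11 (standard error 0.044). The Egln1 value is the mean of 2 probe sets, at signals of 8.36 (difference -0.14) and 9.25 (difference -0.073). Over 16 regulators the median was -0.038, with 11 below 0. Of 14 other hypoxia targets 12 were below 0, none at an unadjusted p under 0.05 (median -0.041), and Vegfa had -0.10 (standard error 0.050), P4ha2 -0.048 (0.045) and Ankrd37 -0.055 (0.058). Of 17 transporters of glucose, lactate and pyruvate 8 were below 0 (median 0.017). The neuronal glucose transporter Slc2a3 read 10.39, 10.05, 10.40 and 10.34 with HDACI and 10.37, 10.52, 10.50 and 10.55 with vehicle, a difference of -0.19 (standard error 0.081, unadjusted p = 0.0446 from limma), which was -0.11 without HDACI replicate 2. Slc2a6 had -0.12 (standard error 0.050) and Slc2a10 0.14 (standard error 0.071), the second of which was 0.080 without HDACI replicate 1.

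**Figure D5:**
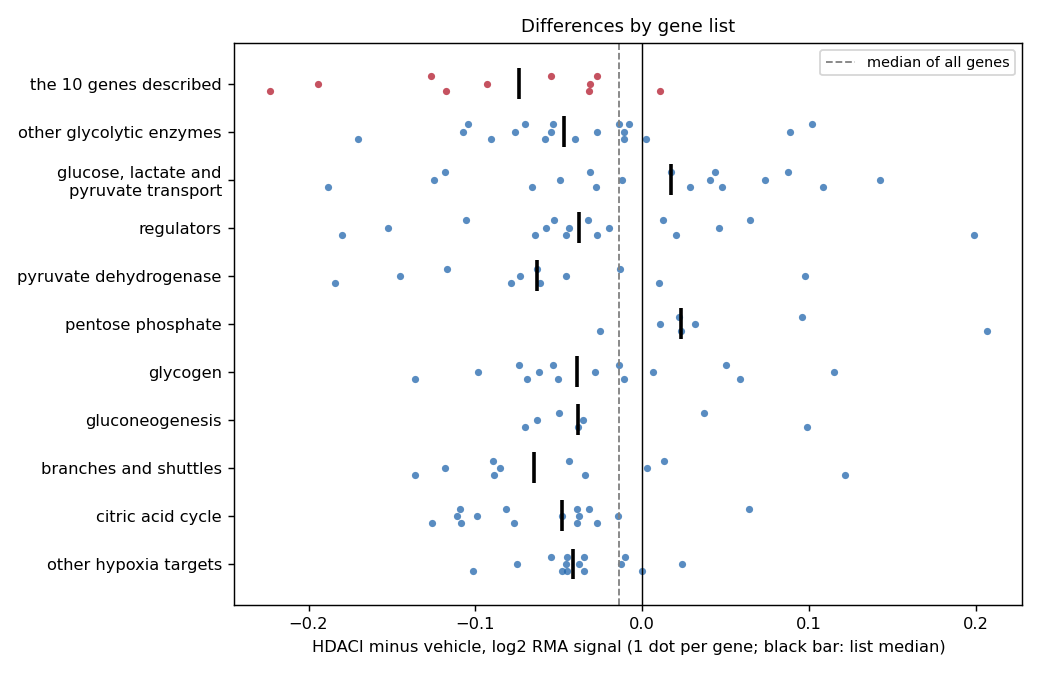
HDACI minus vehicle differences in log2 RMA signal (horizontal axis) for each gene (dots) of the 10 glycolytic genes and of 10 further lists, with list medians as black bars and the median of all genes (-0.014) as a dashed line. List medians run from -0.074 for the 10 genes to 0.023 for the pentose phosphate pathway.

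The pentose phosphate pathway, which branches off glycolysis to make NADPH, leaned the other way, with 6 of 7 measured genes above 0 (median 0.023). Transaldolase (Taldo1) had 9.23, 9.48, 9.19 and 9.29 with HDACI and 9.21, 9.12, 9.04 and 8.99 with vehicle, a difference of 0.21 (standard error 0.072, unadjusted p = 0.0182 from limma). Tktl1 had 0.096 (standard error 0.074) and Pgls -0.025 (standard error 0.046). Of 14 glycogen genes 10 were below 0 (median -0.039), with the branching enzyme Gbe1 at -0.098 (standard error 0.042), glycogenin (Gyg1) at -0.14 (standard error 0.067; -0.072 without vehicle replicate 2) and Pgm1 at -0.069 (standard error 0.041). Of 7 gluconeogenic genes 5 were below 0 (median -0.039), with Pck2 at -0.070 (standard error 0.040), G6pc3 at -0.050 (standard error 0.040) and Fbp1 at 0.098 (standard error 0.089). No gene of these 3 lists had an unadjusted p under 0.01 in limma. Fbp1 (means 6.24 with HDACI and 6.14 with vehicle) and Tktl1 (6.54 and 6.45) were dim. Both lay under 6.93, the 95th percentile of the olfactory receptor genes.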

How the data were processed

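The deposited values are log2 signals of 29214 probe sets on 8 arrays, which the authors computed by RMA in the oligo package (background correction, quantile normalization, 1 summary per probe set). Their versions were not given in the sources used here. Groups and replicate numbers came from the sample labels, and the study gives 4 biological replicates per group.

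Probe sets with 1 symbol in the platform annotation (15310) were averaged per gene once symbols had been brought up to date from RefSeq (GRCr8) through Entrez numbers; 323 probe sets had several symbols and 13581 were not listed. HDACI and vehicle were compared in limma 3.58.1 (lmFit, eBayes; R 4.3.3) over 14506 genes, two-sided, with Benjamini-Hochberg adjustment and no block. The call was an unadjusted p under 0.01, as in the study, with an adjusted p under 0.05 beside it. The fit was tested on simulated data.

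The 10 genes and all lists were chosen with earlier results of these data known. Genes named are the 10, in each list those called and the 3 smallest p, 5 that complete glycolysis, and the 5 most like Pgk1; marker genes were named after their values were seen. Same-numbered arrays were not treated as pairs. Array number limits precision, and genes without a call may still differ. Alternatives were 7 other settings, each array left out in turn, and 1 added later.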

Additional observations from a re-analysis of the deposited data

Results flagged for a closer look

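Within groups of 4 arrays, 4 values stood far from the other 3 by Dixon's ratio, out of 92 groups examined, of which chance would flag about 1 in 20. Ldhb in HDACI replicate 2 read 12.70, against 12.65 on each of the other HDACI arrays. Tigar in HDACI replicate 3 read 9.34, against 9.02 to 9.05 on the others. Slc2a10 in vehicle replicate 2 read 7.74, against 7.90 to 7.92 on the other vehicle arrays, and Pck2 in the same array read 8.19, against 8.28 to 8.29.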

How the results depend on the processing

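The Pgk1 difference kept its direction under all alternatives, from -0.23 to -0.16 with single arrays left out and -0.17 with array quality weights. It stayed under the unadjusted limit of 0.01 it was chosen by in 3 of the 8 fits with an array left out (HDACI replicate 1, HDACI replicate 3 or vehicle replicate 1), but not in the others, nor with the replicate number as a block. The median over the 10 genes ran from -0.092 to -0.055 with arrays left out, and between 9 and 10 genes were lower. The count of pathway genes called outside the 10, 3 in all, ran from 0 to 4 with arrays left out, and that over all genes, 212, from 113 without HDACI replicate 4 to 259. With trend and robust settings of eBayes 6 pathway genes were called. With the replicate number as a block 1 was called, Epas1, since Pfkl (unadjusted p = 0.0147 in limma) and Pdhb (0.0213) were not. Same-numbered arrays deviated together in 1 of 4 pairs (r over 0.1, with values from -0.21 to 0.23). The labels give only a number, and whether same-numbered arrays share anything further is not known. Gapdh, at -0.011, stood at 0.00083 with its brightest probe set. With a further quantile normalization Pfkl (unadjusted p = 0.0107 in limma) and Pdhb (0.0176) were no longer called. The median SD within groups was 0.087 over all genes, with 4 arrays per group.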

Other observations

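A further probe set carries the symbols Tpi1l1 and Tpi1 together and was left out of the gene value. It read 13.34, 13.23, 13.25 and 13.24 with HDACI and 13.39, 13.40, 13.36 and 13.30 with vehicle, a difference of -0.099 (standard error 0.045), close to the -0.12 of the Tpi1 probe set. HDACI replicate 1 overlapped the vehicle arrays on both.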
